A study of Mus musculus with 4 samples.

Results

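The 36 genes described here make up 3 arms of the cellular response to protein and nutrient stress. They were chosen by name from a list of known functions, with earlier results of these data known. Of the 37991 genes in the deposited count table, 16 belong to the endoplasmic reticulum (ER) folding arm, 10 to the heat shock arm and 10 to the ATF4 and amino-acid arm. All 36 had a row and all 36 passed the filter on low counts, which kept 14027 genes. RNA sequencing was done on mouse embryonic stem cells (mESC), with 2 biological replicates of wild-type cells (wt) and 2 of cells that lack Lmnb1 and Lmnb2 (dKO). The products of these genes, the B-type lamins, are filament proteins under the inner nuclear membrane, and the comparison asks whether transcript levels differ when cells lack them. All 4 libraries carry the strain label ZHBTc4, a stem cell line known for an Oct4 transgene that tetracycline can switch off. No treatment or time point is labelled. The labels do not say whether a genotype is 1 clone or several, or whether replicates were separate cultures, so p-values measure only the spread between these samples, and the effects of genotype and of line cannot be told apart.

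Cells sense misfolded protein in the ER through IRE1 (Ern1), PERK (Eif2ak3) and ATF6 (Atf6). IRE1 splices the mRNA of Xbp1, and XBP1 and ATF6 then induce ER chaperones, often through the ER stress response element in their promoters. In the cytosol, HSF1 induces chaperones of the HSP70, HSP90 and HSP40 families through the heat shock element. PERK and related kinases phosphorylate the initiation factor eIF2, which favours translation of ATF4, and ATF4 induces genes of amino-acid uptake and synthesis. Embryonic stem cells divide fast and are known for high levels of cytosolic chaperones. Splicing, translation and protein cleavage, through which Xbp1, Atf4 and Atf6 are controlled, are not measured by counts per gene.

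Total counts were 12899964 to 16697970 per library. The targeted transcripts set the genotypes apart as labelled: Lmnb1 had 8538 and 8321 counts in the wt libraries against 69 and 101 in the dKO libraries, and Lmnb2 had 1343 and 1787 against 41 and 55. All 10 embryonic stem cell markers were measured, in CPM (read counts relative to library size, with the TMM correction for library composition). They summed to 5667 and 5677 CPM in wt and to 6380 and 6710 CPM in dKO libraries. Zfp42 had 666 and 613 CPM in wt and 1449 and 1435 CPM in dKO libraries (2.25-fold, edgeR adjusted p = 0.0886). Klf4 and Esrrb were also higher in both dKO libraries, Dppa5a and Utf1 were lower in both, and the others overlapped. Blood markers other than Laptm5 were under 1 CPM in every library, 5 of 6 in all, and the 8 fibroblast markers summed to at most 10.4 CPM. Laptm5 had 104 and 116 CPM in wt and 135 and 198 CPM in dKO libraries (1.51-fold, edgeR adjusted p = 0.79). Trophoblast markers summed to 260 and 524 CPM in wt replicates 1 and 2 and to 141 and 382 CPM in dKO replicates 1 and 2, of which Krt8 and Krt18 made up most. Of these 7 markers 5 were higher in replicate 2 of both genotypes, with Gata3 at 6.88 to 19.0 CPM, while Cdx2 was lower there and at no more than 1.33 CPM. The sum of the primitive endoderm markers, 245 and 411 CPM in wt and 189.7 and 325 CPM in dKO libraries, was mostly Sparc. Sparc and Dab2 were higher in replicate 2 of both genotypes, and the other 5 (Gata4, Gata6, Sox7, Sox17 and Foxa2, each at most 11.2 CPM) were lower. Sox7 had 4.61 and 2.10 CPM in wt and 11.2 and 7.70 CPM in dKO libraries (2.83-fold, edgeR adjusted p = 0.72). Neural markers summed to 128 and 78.5 CPM in wt and 98.5 and 67.8 CPM in dKO libraries, with Nes and Tubb3 lower in replicate 2 of both genotypes.

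Some genes of each arm held the promoter element by which the arm is known. RefSeq promoters, from 250 bases before to 50 after the transcription start (GRCm38.p6), were found for 30 of the 36 genes; Hyou1, Atf6, Hspa8, Hsp90aa1, Hsp90ab1 and Hsf1 had no entry. The ER stress response element was searched on both strands as CCAAT and CCACG with 9 bases of any kind between them. Here and below, percentages are shares of promoters, of which a gene can have more than 1. A gene was counted if any of its promoters held the sequence searched. The ER stress response element stood in 39 of 32851 promoters (0.119%), and 6 of the 14 ER genes with a promoter held it. These 6 are shown because the element is rare among all promoters, with the CCAAT and CCACG ends of the element (or their reverse complement) in capitals, 5′ to 3′ on the strand of the gene.
Hspa5: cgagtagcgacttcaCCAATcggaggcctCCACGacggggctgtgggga
Hsp90b1: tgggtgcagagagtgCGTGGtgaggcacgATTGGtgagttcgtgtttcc
Pdia6: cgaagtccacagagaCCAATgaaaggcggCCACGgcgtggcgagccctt
Calr: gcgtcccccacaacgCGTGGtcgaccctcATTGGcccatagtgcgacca
Canx: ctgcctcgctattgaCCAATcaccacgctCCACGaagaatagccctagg
Dnajc3: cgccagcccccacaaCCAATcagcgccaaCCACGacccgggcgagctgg
The elements began 65 bases upstream of the start in Hspa5 (chr2:34772010-34772058, plus strand), 107 in Hsp90b1 (chr10:86705518-86705566, minus strand) and 98 in Pdia6 (chr12:17266476-17266524, plus strand). In Calr it was 162 (chr8:84847060-84847108, minus strand), in Canx 145 (chr11:50325785-50325833, minus strand) and in Dnajc3 105 (chr14:118937812-118937860, plus strand). Hsp90b1 held a second element 212 bases upstream. The element was in 0 of 6 heat shock and 0 of 10 ATF4 promoters. The XBP1 site TGACGTGG, in 222 promoters (0.676%), was in none of the 30 and in 4 of 31 other ER folding genes.

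The heat shock element, searched on both strands as the blocks GAA, TTC and GAA with 2 bases of any kind between neighbours, stood in 198 promoters (0.603%). Of 6 heat shock genes with a promoter, Hspd1, Hspe1 and Hsph1 held it, as did 0 of 14 ER and 0 of 10 ATF4 genes. Hspd1 and Hspe1 are transcribed away from each other and share 1 element (chr1:55088053-55088082), which is printed on the strand of each gene with its GAA and TTC blocks in capitals; that of Hsph1 lies just after its start and is given for comparison (chr5:149636287-149636306, minus strand).
Hspd1: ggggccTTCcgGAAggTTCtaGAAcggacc
Hspe1: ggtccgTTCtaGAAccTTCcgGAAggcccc
Hsph1: tgcagaTTCtgGAAagTTCt
The ATF4 site, searched as TGATGNAA on both strands, is short and stood in 1304 promoters (3.97%). It was in 3 of 10 genes of the ATF4 arm (Asns, Trib3 and Chac1) and in Herpud1 of the ER arm, a known target of more than 1 branch. These 4 are shown with the bases of the site in capitals.
Asns: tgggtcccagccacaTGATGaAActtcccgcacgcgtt
Trib3: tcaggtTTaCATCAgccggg
Chac1: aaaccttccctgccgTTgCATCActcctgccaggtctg
Herpud1: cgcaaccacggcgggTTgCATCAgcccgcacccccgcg
They lie at chr6:7693210-7693247 (minus strand) for Asns, chr2:152344033-152344052 (minus strand) for Trib3, chr2:119351034-119351071 (plus strand) for Chac1 and chr8:94386302-94386339 (plus strand) for Herpud1. The site of Trib3 lies just after its start, while the others began 23 (Asns), 193 (Chac1) and 112 (Herpud1) bases upstream. A match says only that the letters are there, and no binding was measured.

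No gene of the 3 arms passed the test between genotypes. In edgeR's quasi-likelihood test 0 of 36 had an adjusted p under 0.05, where 12 of 14027 genes (0.0855%) did, 5 higher (0.0356%) and 7 lower (0.0499%) in dKO cells, and DESeq2 and limma-voom called 0 of 36 as well. At an unadjusted p under 0.05 there were 3 (5.57% of all genes): Dnajc3 and Atf6, higher in dKO cells (2.87%), and Xbp1, lower (2.71%). The lowest adjusted p was 0.34, that of Dnajc3. A fit with the replicate number as a block called 7 of 36 (Dnajc3, Hspa5, Atf6, Xbp1, Atf5, Chac1 and Phgdh), where it called 9.26% of all genes; the labels do not tie the numbers to a shared batch. In 11 of 36 genes the genotypes did not overlap (33.6% of all genes), 9 with both dKO libraries above both wt libraries (17.2% of all genes) and 2 below (16.4%). The 95% interval of the log2 fold change (dKO minus wt) lay within 2-fold for 33 of 36 genes, all but Herpud1, Atf5 and Chac1, and within 1.5-fold for 17. Over all tested genes these shares were 65.5% and 37.2%, with many genes at lower counts.

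**Figure D1:**
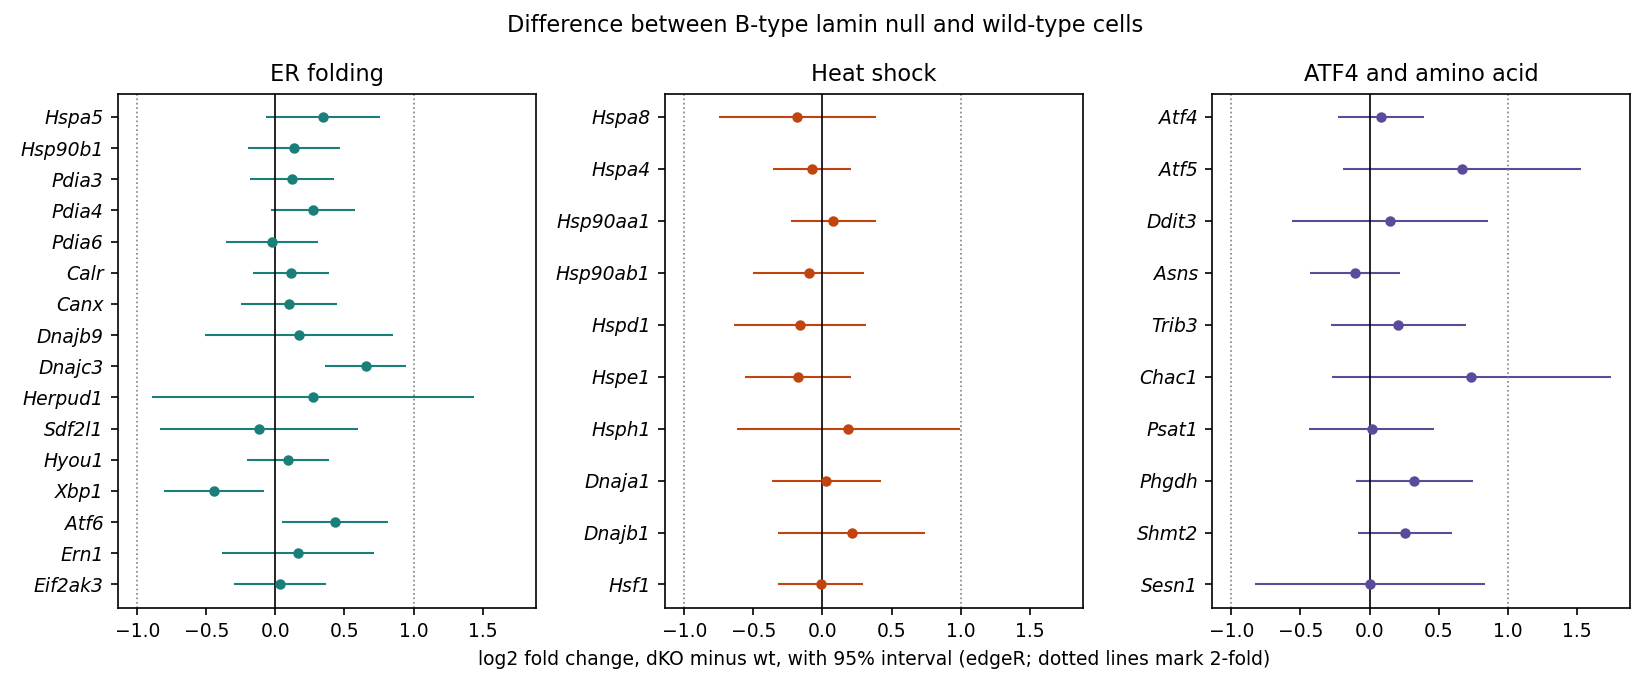
Log2 fold change (dKO minus wt, x axis) of each of the 36 genes with its 95% interval from edgeR's quasi-likelihood test, by arm; dotted lines mark 2-fold. The intervals of Dnajc3, Atf6 and Xbp1 leave out 0, and those of Herpud1, Atf5 and Chac1 reach past 2-fold.

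The ER sensors and factors had unlike values. Xbp1 (chromosome 11, 5420662 to 5425896), the transcription factor that IRE1 activates, had 58.3 and 49.2 CPM in the wt libraries and 41.1 and 37.9 CPM in the dKO libraries. Both dKO libraries lay below both wt libraries, with a log2 fold change of -0.44 (SE 0.15, 95% interval -0.81 to -0.08, edgeR adjusted p = 0.781). Atf6 (chromosome 1, 172634588 to 172797902), the membrane-bound factor that is cut to become active, had 98.8 and 122 CPM in wt against 138 and 161 CPM in dKO libraries. Here both dKO libraries lay above, with a log2 fold change of 0.43 (SE 0.16, 0.05 to 0.82, edgeR adjusted p = 0.843) and 0.29 without wt replicate 1. Ern1 (chromosome 11, 106255964 to 106349166), which encodes IRE1, was lower in abundance, at 10.9 and 14.7 CPM in wt and 14.8 and 14.0 CPM in dKO libraries, and the genotypes overlapped (0.16, SE 0.22, -0.39 to 0.71, edgeR adjusted p = 0.985). Eif2ak3 (chromosome 6, 70794509 to 70855239), which encodes PERK, had 34.8 and 35.5 CPM in wt and 37.6 and 34.5 CPM in dKO libraries. Its log2 fold change was 0.04 (SE 0.14, edgeR adjusted p = 0.995) with an interval of -0.30 to 0.37, within 1.5-fold in both directions.

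Among the ER chaperones and their partners, Dnajc3 had the lowest p, and its replicates, like those of Calr, lay close together. Dnajc3 (chromosome 14, 119337154 to 119380924), a co-chaperone of BiP that also inhibits eIF2 kinases, had 47.3 and 46.9 CPM in wt and 74.3 and 74.0 CPM in dKO libraries, from 605 and 714 counts against 1210 and 1240. Its dKO mean was 1.57-fold the wt mean, a log2 fold change of 0.65 (SE 0.12, 0.36 to 0.95, edgeR adjusted p = 0.34, unadjusted 0.00171). Its adjusted p was 0.0505 by DESeq2 and lay between that and 0.942 over the alternatives without a block, while its log2 fold change lay between 0.62 and 0.66. Hspa5 (chromosome 2, 34627490 to 34632051) encodes BiP, the main HSP70 of the ER. It had 518 and 429.8 CPM in wt and 670.1 and 534 CPM in dKO libraries, a log2 fold change of 0.35 (SE 0.17, -0.07 to 0.76, edgeR adjusted p = 0.911). Its highest wt library and lowest dKO library differed little, and replicate 1 was the higher one in each genotype. Its log2 fold change was 0.18 without dKO replicate 1 and 0.22 without wt replicate 2. Pdia4 (chromosome 6, 47746141 to 47763511), a disulfide isomerase, had 96.5 and 103 CPM in wt and 127 and 113 CPM in dKO libraries (0.27, SE 0.12, -0.03 to 0.57, edgeR adjusted p = 0.907).

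The lectin chaperones Calr and Canx, which fold glycoproteins, were abundant in all libraries. Calr (chromosome 8, 87365749 to 87370833) had 479 and 474 CPM in wt and 515 CPM in both dKO libraries, a small difference without overlap (0.11, SE 0.11, -0.16 to 0.39, edgeR adjusted p = 0.981). Canx (chromosome 11, 50107969 to 50139175) had 624 and 545 CPM in wt and 673 and 580.1 CPM in dKO libraries, which overlapped (0.10, SE 0.14, -0.25 to 0.45, edgeR adjusted p = 0.987). The ER HSP90 Hsp90b1 (0.14), the nucleotide exchange factor Hyou1 (0.09) and the isomerases Pdia3 (0.12) and Pdia6 (-0.03) had log2 fold changes near 0, each with an interval within 1.5-fold. The 3 remaining genes of the arm were less abundant and had wide intervals: Dnajb9, a co-chaperone that XBP1 induces, at 0.17 (-0.51 to 0.85), Sdf2l1, a partner of BiP, at -0.12 (-0.83 to 0.60), and Herpud1, a factor of ER-associated degradation, at 0.27 (-0.89 to 1.44). For these 3 the intervals reach past 1.5-fold in at least 1 direction. In the arm as a whole 13 of 16 log2 fold changes were positive, where 6966 of 14027 were over all genes tested. The median was 0.13, beside -0.002 over all genes tested. Summed over the arm, the level was 3081 and 3058 CPM in wt and 3559 and 3305 CPM in dKO libraries. Without wt replicate 1 that median was 0.032. The 6 genes with an ER stress response element had log2 fold changes from -0.03 (Pdia6) to 0.65 (Dnajc3), and the 8 with a promoter but no element lay from -0.44 (Xbp1) to 0.27 (Herpud1), so both kinds had values on both sides of 0.

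**Figure D2:**
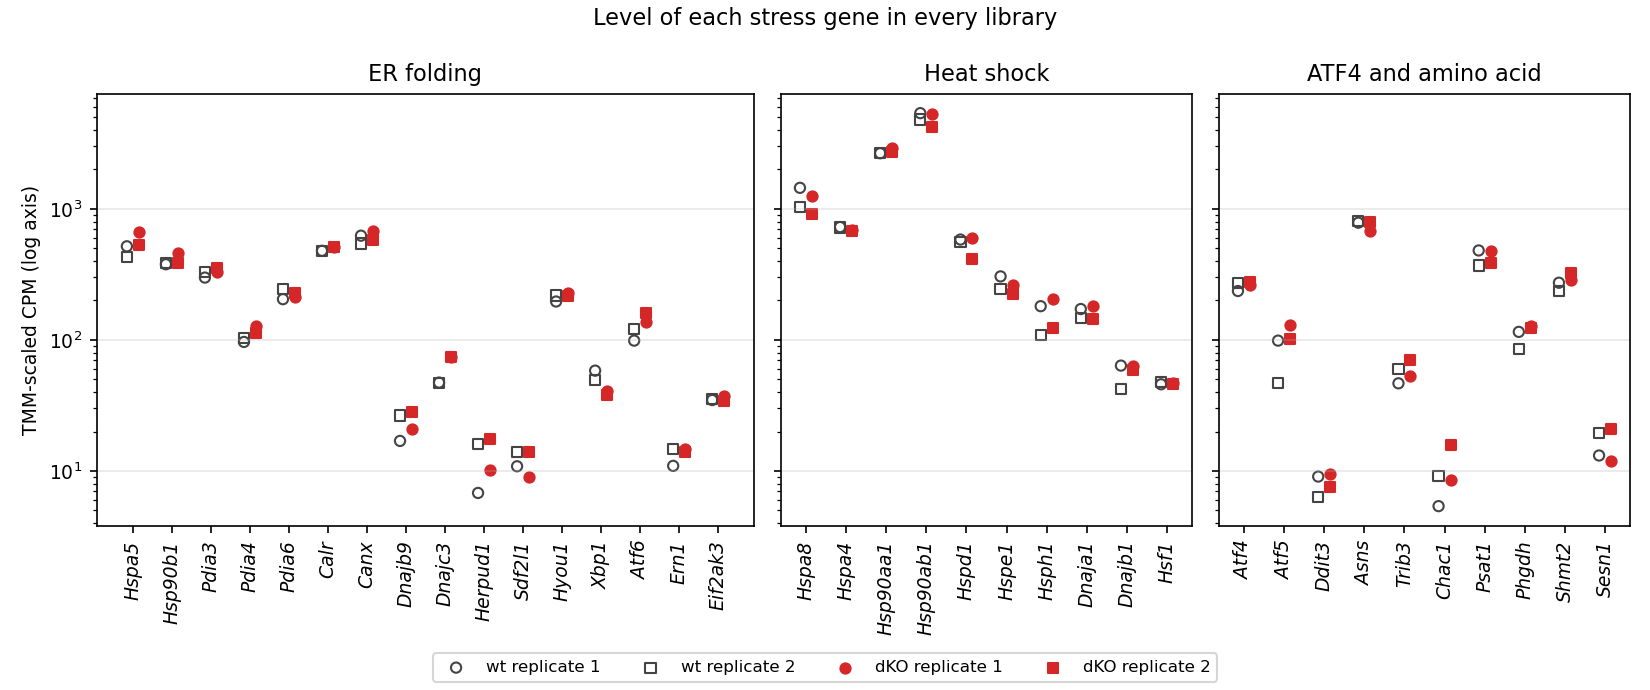
Level of each gene in every library (y axis, TMM-scaled CPM on a log axis), by arm; open symbols are wt, filled symbols dKO, circles replicate 1 and squares replicate 2. The replicates of Dnajc3 coincide within each genotype, while those of Herpud1, Hsph1, Chac1 and Sesn1 lie apart in both genotypes.

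Heat shock genes held most of the reads of the 3 arms and differed little between genotypes. Hsp90ab1 (chromosome 17, 45704724 to 45710220), the constitutive cytosolic HSP90, had 5375 and 4814 CPM in wt and 5267 and 4237 CPM in dKO libraries (log2 fold change -0.10, SE 0.16, -0.50 to 0.30, edgeR adjusted p = 0.989). Hsp90aa1 (chromosome 12, 111928815 to 111940938), its stress-inducible relative, had 2658 and 2664 CPM in wt and 2903 and 2721 CPM in dKO libraries (0.08, SE 0.13, -0.23 to 0.39, edgeR adjusted p = 0.987). Hspa8 (chromosome 9, 40609067 to 40613283), the constitutive HSP70, had 1447 and 1027 CPM in wt and 1261 and 921 CPM in dKO libraries, so that the library of each genotype numbered 1 was the higher one (-0.18, SE 0.23, -0.75 to 0.39, edgeR adjusted p = 0.985). The transcription factor Hsf1 (chromosome 15, 76307865 to 76331402) was even across libraries, at 45.9 and 47.9 CPM in wt and 46.6 and 46.4 CPM in dKO libraries (-0.01, SE 0.12, -0.32 to 0.29, edgeR adjusted p = 0.995).

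Hspd1 and Hspe1 encode the mitochondrial chaperonin HSP60 and its lid HSP10 and share a promoter region. Hspd1 (chromosome 1, 55134679 to 55145087) had 584 and 558 CPM in wt and 602 and 416 CPM in dKO libraries (-0.16, SE 0.19, -0.64 to 0.32, edgeR adjusted p = 0.981). Hspe1 (chromosome 1, 55144976 to 55148151) had 305 and 246 CPM in wt and 262 and 226 CPM in dKO libraries (-0.18, SE 0.16, -0.56 to 0.21, edgeR adjusted p = 0.978). Both log2 fold changes were thus negative and close in size, and neither differed from 0 beyond its error. Dnajb1, the main stress-induced HSP40 (chromosome 8, 86132074 to 86135801), had 63.7 and 42.0 CPM in wt and 63.4 and 58.9 CPM in dKO libraries (0.21, SE 0.21, -0.32 to 0.74, edgeR adjusted p = 0.981). The other HSP40, Dnaja1 (0.03), and the nucleotide exchange factor Hspa4 (-0.08) had intervals within 1.5-fold, and Hsph1, a relative of Hspa4, had 0.19 with an interval of -0.62 to 0.997. In this arm 4 of 10 log2 fold changes were positive, and the median was -0.04. That median had either sign when 1 library was left out, at 0.03 without wt replicate 1, 0.07 without dKO replicate 2, -0.11 without wt replicate 2 and -0.19 without dKO replicate 1.

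In the ATF4 arm, the factor itself hardly differed between genotypes, while some of its targets had larger but imprecise values. Atf4 (chromosome 15, 80085614 to 80087970) had 236 and 272 CPM in wt and 264 and 275 CPM in dKO libraries (0.08, SE 0.13, -0.23 to 0.39, edgeR adjusted p = 0.987). Ddit3 (chromosome 10, 126727830 to 126733344), which encodes CHOP, a factor tied to cell death under long stress, was low, with 9.07 and 6.38 CPM in wt and 9.52 and 7.58 CPM in dKO libraries (0.15, SE 0.29, -0.56 to 0.86, edgeR adjusted p = 0.99). Atf5 (chromosome 7, 52067627 to 52072028), a related factor that ATF4 and CHOP induce, had 98.8 and 47.1 CPM in wt and 129 and 102 CPM in dKO libraries. The dKO libraries lay above the wt libraries, but wt replicates 1 and 2 were further apart from each other than wt replicate 1 was from either dKO library (0.67, SE 0.35, -0.19 to 1.53, edgeR adjusted p = 0.938). Leaving out wt replicate 1 gave Atf5 a log2 fold change of 1.29, and leaving out wt replicate 2 gave 0.23, so its size rests on the wt libraries.

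Chac1 (chromosome 2, 119176965 to 119180117), an enzyme that degrades glutathione, had 5.39 and 9.20 CPM in wt and 8.47 and 15.9 CPM in dKO libraries. The genotypes overlapped, and replicate 2 was the higher library in each (0.74, SE 0.41, -0.27 to 1.75, edgeR adjusted p = 0.942). With 1 library left out, its log2 fold change was 0.22 (dKO replicate 2), 0.40 (wt replicate 1), 1.12 (dKO replicate 1) or 1.18 (wt replicate 2). Trib3, a pseudokinase that restrains ATF4, had 46.7 and 60.3 CPM in wt and 53.5 and 70.3 CPM in dKO libraries (0.21, -0.28 to 0.70). Sesn1, which restrains mTORC1 and is better known as a target of p53 than of ATF4, had 13.1 and 19.6 CPM in wt and 11.9 and 20.9 CPM in dKO libraries (0.004, -0.83 to 0.84).

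The enzymes of the arm make serine, glycine and asparagine. Phgdh (chromosome 3, 98117093 to 98143913), the first enzyme of serine synthesis, had 115 and 84.9 CPM in wt and 128 and 123 CPM in dKO libraries (0.32, SE 0.17, -0.10 to 0.75, edgeR adjusted p = 0.938). Shmt2 (chromosome 10, 126954195 to 126959491), which turns serine into glycine in mitochondria, had 273 and 237 CPM in wt and 285 and 325 CPM in dKO libraries (0.26, SE 0.14, -0.08 to 0.59, edgeR adjusted p = 0.942). In both genes the dKO libraries lay above the wt libraries. With 1 library left out the log2 fold change ran from 0.12 (without wt replicate 2) to 0.56 (without wt replicate 1) for Phgdh, and from 0.16 (without wt replicate 2) to 0.36 (without wt replicate 1) for Shmt2. Psat1 (chromosome 19, 15979168 to 16021827), the next enzyme after Phgdh, had 482 and 370.1 CPM in wt and 478 and 384 CPM in dKO libraries, with replicates further apart than genotypes (0.02, SE 0.18, -0.44 to 0.47, edgeR adjusted p = 0.995). Asns (chromosome 6, 7625169 to 7643254), asparagine synthetase, had 784 and 808 CPM in wt and 681 and 799 CPM in dKO libraries (-0.11, SE 0.13, -0.43 to 0.22, edgeR adjusted p = 0.985). Of the 10 genes of the arm 9 had positive log2 fold changes (6966 of 14027 over all genes), with a median of 0.18. The summed level overlapped, at 2064 and 1914 CPM in wt and 2048 and 2121 CPM in dKO libraries. All genes of an arm come from the same 4 libraries, and a shared shift was not tested. Leaving out wt replicate 1 gave a median of 0.29, and leaving out dKO replicate 1 gave 0.32.

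To compare genes with each other, levels were divided by exon length (CPM per kb). Lengths joined all exons that GENCODE M21 lists for a gene, so they can exceed that of any 1 transcript. They were 4301 bases for Hspa8, 2735 for Asns and 8629 for Dnaja1. The annotation behind the counts is not stated, and the order of genes depends on these lengths. On this scale both cytosolic HSP90 genes were the highest of the 36, with 1642 CPM per kb over the 4 libraries for Hsp90ab1 (range 1413 to 1792) and 696 for Hsp90aa1 (676 to 738). Asns, at 281 (249 to 295), and Hspa8, at 271 (214 to 337), came next and did not differ beyond their ranges. Other cytosolic chaperones were lower, such as Hspa4 at 128 and Dnajb1 at 17.8 CPM per kb. In the ER arm Calr led with 172 CPM per kb (165 to 179), above Canx at 129 (116 to 143) and Hspa5 at 127 (102 to 158), whose ranges overlapped. The sensors Atf6, at 14.1, Eif2ak3, at 5.91, and Ern1, at 1.67 CPM per kb and the lowest of all 36, were below these chaperones. Dnajc3 (11.8), Sdf2l1 (10.8) and Dnajb9 (9.07) were in the range of the sensors. In the ATF4 arm Atf4 had 111 CPM per kb (100.2 to 116) and Ddit3 4.75 (3.72 to 5.56).

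Among the members, as among all genes tested, a difference between replicates in at least 1 genotype was often larger than the fitted difference between genotypes. The larger of the differences between replicates, in log2(CPM + 1), exceeded the log2 fold change between genotypes in 28 of 36 genes (77.8%; 71.6% of all genes tested). In the heat shock arm 8 of 10 genes were lower in replicate 2 than in replicate 1 in both genotypes, where 36.4% of all genes were, and 0 were higher in both. The median difference was -0.19 in wt and -0.26 in dKO cells, and the summed level of the arm was 11558 and 10377 CPM in wt and 11485.5 and 9576 CPM in dKO libraries. Hsph1 had the largest such difference of the arm, with 181 and 109 CPM in wt and 206 and 124 CPM in dKO libraries, -0.73 in both genotypes. In Hspa8 the differences were -0.49 and -0.45. The tilt was not particular to this arm. Of the other pathway genes described below, 62.5% of the heat shock and chaperonin list were lower in replicate 2 of both genotypes. The share was 55.3% in the other ER folding list and 36.5% in the other ATF4 list.

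Other members lay the opposite way. Herpud1 had 6.80 and 16.1 CPM in wt replicates 1 and 2 and 10.1 and 17.7 CPM in dKO replicates 1 and 2, differences of 1.13 and 0.75. Chac1 (0.67 in wt, 0.84 in dKO), Sesn1 (0.54, 0.76), Dnajb9 (0.61, 0.43) and Sdf2l1 (0.34, 0.59) were higher in replicate 2 of both genotypes as well. In the ER arm 6 of 16 genes were higher and 5 lower in replicate 2 of both genotypes, and in the ATF4 arm 5 and 4 of 10 (35.9% and 36.4% of all genes). The summed trophoblast markers and Sparc were higher, and most primitive endoderm markers, Nes and Tubb3 lower, in replicate 2 of both genotypes, as given above, and their part in these differences was not tested. Each such difference is between 2 libraries and has no test of its own.

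**Figure D3:**
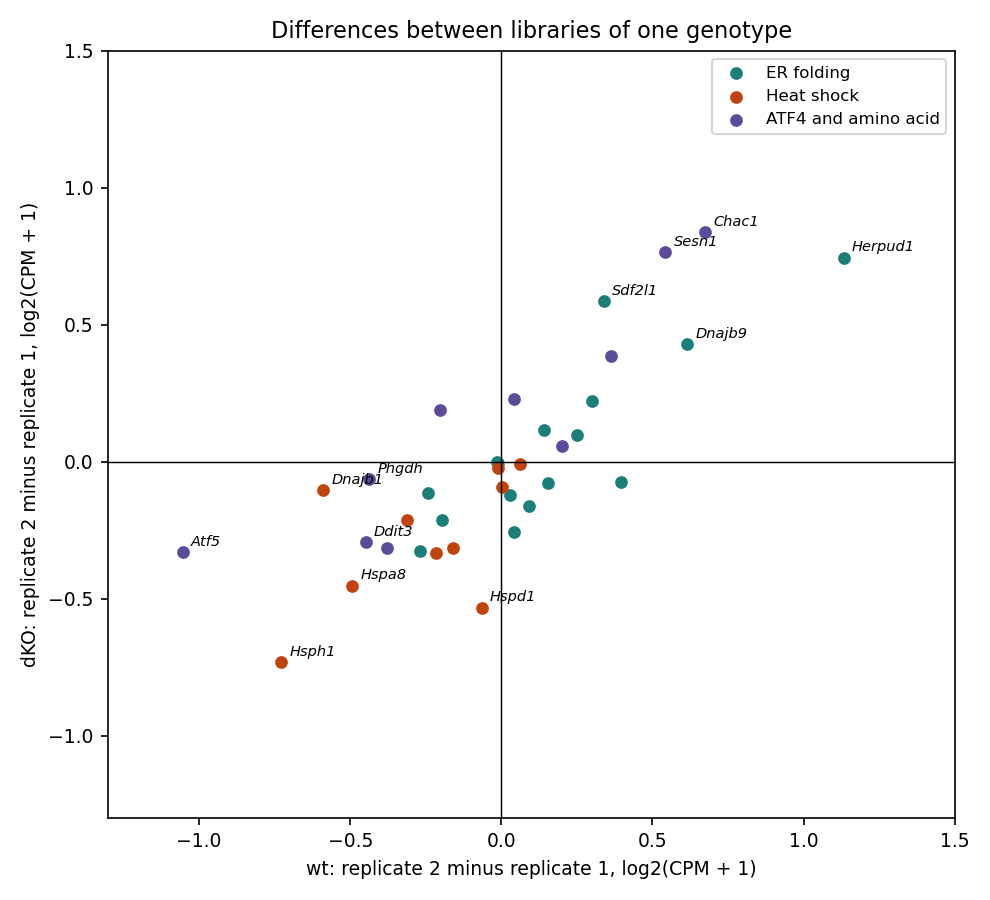
Difference between replicate 2 and replicate 1 in log2(CPM + 1) for the 36 genes, in wt (x axis) and dKO cells (y axis), coloured by arm; genes beyond 0.4 in either genotype are named. Heat shock genes lie to the lower left, with Hsph1 at -0.73 on both axes, and Herpud1 and Chac1 to the upper right.

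Other genes of the same pathways were taken from lists made by known function, also with earlier results of these data known. None of these genes passed the test without a block. With the replicate block 1 ER folding, 3 heat shock and 7 ATF4 genes of these lists were called (9.26% of all genes). Of 38 other ER folding genes, 0 passed edgeR's test. Their log2 fold changes had a median of 0.07, and 28 were positive (6966 of 14027 over all genes). At an unadjusted p under 0.05 there was 1 gene (all genes 5.57%). That gene was Crebrf, a regulator of the response, with 65.7 and 72.1 CPM in wt and 90.4 and 95.9 CPM in dKO libraries (0.43, SE 0.12, edgeR adjusted p = 0.72). Spcs3, a signal peptidase subunit, had 0.21, Ube2j1, a ubiquitin-conjugating enzyme of ER-associated degradation, -0.38, and P4hb, the founding disulfide isomerase, 0.07. Of 40 tested other heat shock and chaperonin genes, 0 passed and 1 had an unadjusted p under 0.05 (all genes 5.57%), with a median of -0.02. It was Fkbp5, an HSP90 co-chaperone induced by glucocorticoids, with 148 and 169.7 CPM in wt and 204 and 243 CPM in dKO libraries (0.49, SE 0.14, edgeR adjusted p = 0.72). Stip1, which links HSP70 to HSP90, had -0.29, Hspa4l 0.41 and the mitochondrial HSP70 Hspa9 0.24.

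Of 52 tested other ATF4 and amino-acid genes, 0 passed and 3 had an unadjusted p under 0.05 (all genes 5.57%), all higher in dKO cells (2.87%). Of the 52 log2 fold changes 38 were positive (6966 of 14027 over all genes), with a median of 0.13. Nupr1, a small stress-induced chromatin protein, had 38.1 and 29.2 CPM in wt and 52.9 and 66.5 CPM in dKO libraries (0.83, SE 0.19, 0.35 to 1.31, edgeR adjusted p = 0.569). Stc2, a secreted glycoprotein, had 30.7 and 29.0 CPM in wt and 37.0 and 44.5 CPM in dKO libraries (0.45, SE 0.15, edgeR adjusted p = 0.796). Slc1a5, a glutamine transporter, had 0.31 (SE 0.12, edgeR adjusted p = 0.888) and the tRNA synthetase gene Nars 0.16. In 21 of the 52 genes both dKO libraries lay above both wt libraries (17.2% of all genes) and in 3 below (16.4%). The ATF4 site was in 13 of the 42 of these genes that had a promoter, the ER stress response element in 4 of 31 other ER folding genes and the heat shock element in 2 of 37 other heat shock genes. Hspa1a and Fgf21 were too low to test, and Hspa14 was not matched to a row.

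**Figure D4:**
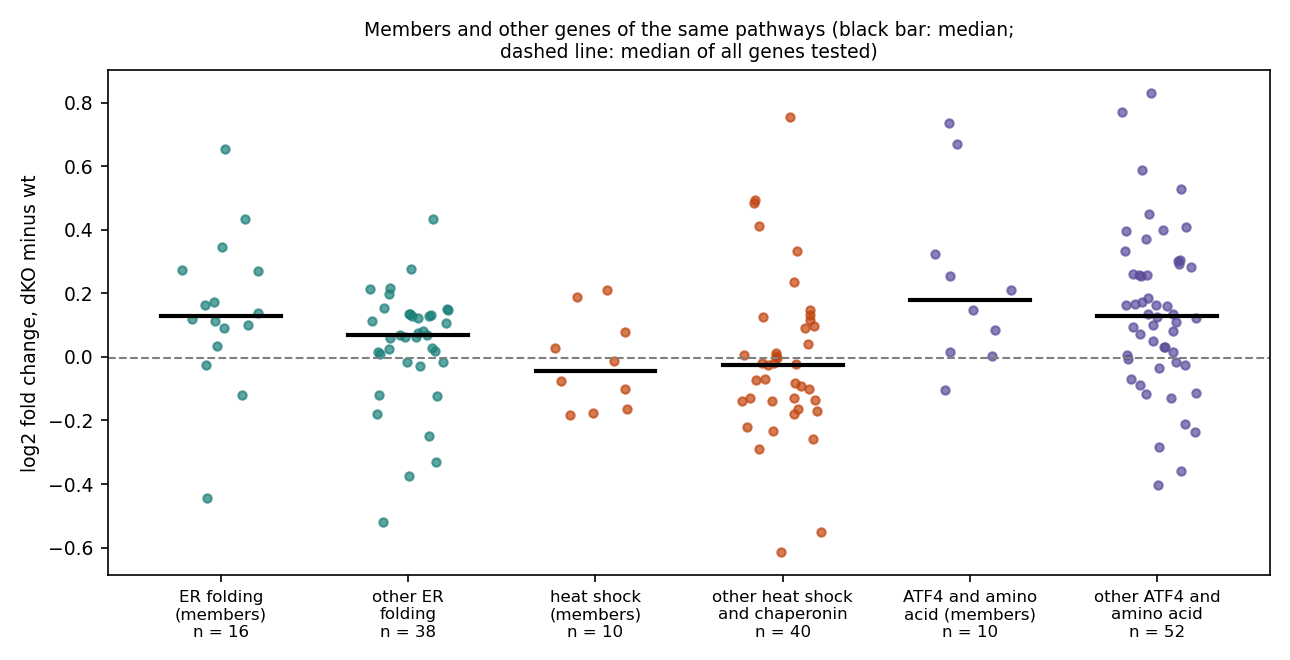
Log2 fold change (dKO minus wt, y axis) of the members of each arm and of the other genes of the same pathway; each point is a gene, black bars are medians and the dashed line is the median of all genes tested. Medians run from -0.04 (heat shock members) to 0.18 (ATF4 members), and the spread of genes within each list is wider than the distance between medians.

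Some counts are uncertain because genes share sequence or position. Ddit3 overlaps exons of Mars on the other strand in GENCODE M21. In the count table Mars begins at 126733277 and Ddit3 ends at 126733344 on chromosome 10, so there they overlap only at their ends. Mars had 27193 counts over the 4 libraries against 495 of Ddit3, and the number of shared exon bases was not determined. Whether counting used strand is not given in the sources used here, so reads from the overlap cannot be fully told apart. The same holds for Dnaja1, which overlaps Smu1 (9834 and 13585 counts), and for Hspd1 and Hspe1, which overlap at their starts. Pseudogene copies of 10 members had rows of their own. The 7 copies of Phgdh together had 590 counts, 8.55% of the 6904 of Phgdh, and copies of the other 9 members had at most 0.193% (Dnaja1).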

How the data were processed

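RNA of 2 wt and 2 dKO mouse embryonic stem cell samples was sequenced from Illumina TruSeq libraries. The authors deposited raw read counts per Ensembl gene; the submitters' processing notes name TopHat2 2.0.6, TopHat and HTSeq. Of the genome build, annotation and strand setting, none is stated in the sources read. Gene positions without "chr" are the table's own; its chromosome 1 reaches 197054592, past the last gene end in GENCODE M21 (195323493), so they were not mixed with GRCm38.p6 positions of RefSeq promoters. Symbols were matched by gene ID for 32919 of 37991 genes.

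After filterByExpr and TMM scaling, edgeR 4.0.16 (R 4.3.3) was run with its robust quasi-likelihood F test, genotype as the only term and Benjamini-Hochberg adjustment over 14027 genes; SEs derive from the F statistic. Scripts were tested on simulated data. Alternatives were other scalings and filters, a replicate block, each library left out, DESeq2 1.42.0, limma-voom (limma 3.58.1), a threshold of 0.01, and a trend on GC content and length taken out; those for the other pathway lists and for replicate differences were added after the data were seen. An exact permutation test of 2 against 2 libraries cannot go below p = 0.333. Copies were found with blastn.

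The 36 members and all lists were chosen with earlier results of these data known. Full statistics are given for sensors and transcription factors and, in each arm, for the 4 genes of lowest unadjusted p and the 3 of highest CPM; from each other list the 3 of lowest p and the 1 of highest CPM are named.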

Additional observations from a re-analysis of the deposited data

How the results depend on the processing

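No stress gene was called under any alternative run except the replicate block, whose 7 calls (9.26% of all genes were called there) were Dnajc3 (edgeR adjusted p = 0.000102), Atf6 (0.00258), Xbp1 (0.00751), Chac1 (0.01), Atf5 (0.0153), Hspa5 (0.0157) and Phgdh (0.0344). The block also called 1 other ER folding, 3 other heat shock and 7 other ATF4 genes. The labels name no shared batch, but replicate 2 minus replicate 1 correlated between genotypes over 14027 genes, which are not independent (r = 0.69). Over all genes the 12 calls became 1299 with the block, 80 with no low-count filter, 94 by DESeq2, 5 by limma-voom and 4 at a threshold of 0.01. Leaving out 1 library gave 18 to 27 calls (27 without wt replicate 2).

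Medians with 1 library left out ran from 0.032 to 0.18 (ER folding), -0.19 to 0.07 (heat shock) and 0.17 to 0.32 (ATF4), and for the other genes of these pathways from 0.01 to 0.13, -0.13 to 0.045 and 0.083 to 0.19. Of 36 log2 fold changes 19 had the opposite sign in some fit, none with a call. The cause of these shifts was not tested. With 2 libraries per genotype, low genes such as Herpud1 and Chac1 have wide intervals.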
